A study of Mus musculus with 12 samples.

Results

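The small RNAs described here were those that the submitters placed in the 3′ UTR category of the genic sequence list of the DN3 control library. They comprised 2811 of the 54267 distinct sequences in that list, or 5.18%, and were assigned to 1532 genes. Each entry was 1 distinct sequence with its gene, strand and position. The list carried no read count, so a sequence cloned once and one cloned many times weighed the same, and the number of entries per gene was not a level of expression.

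DN3 thymocytes are T-cell progenitors of the thymus that carry neither CD4 nor CD8 and rearrange the T-cell receptor beta locus. The control cells were sorted from thymus of Lck-cre mice, in which the Cre recombinase is driven by the T-cell promoter of Lck, on a backcrossed C57BL/6 background at 6 to 7 weeks of age. The labels did not state how many animals were pooled. The series held 12 libraries, 1 for each of 4 cell types in control, Drosha and Dicer versions, and the genic list used here came from the DN3 control library only. RNA of 19 to 30 nt was cut from a gel, and adaptor ligation required a phosphate at the 5′ end and a hydroxyl at the 3′ end. With 1 library there was no replicate spread and no test between conditions, so shares are given with 95% exact (Clopper-Pearson) intervals. These intervals cover counting error only, and sequences that overlap or share a gene are not independent.

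The 3′ UTR is the stretch of an mRNA between the stop codon and the poly(A) tail, where microRNAs and RNA-binding proteins dock. Drosha cuts microRNA hairpins out of primary transcripts and Dicer cuts the hairpins into mature microRNAs, and both leave such ends. Some microRNA hairpins lie within exons or 3′ UTRs of other genes, and other RNA fragments can carry the same ends.

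The category name held for most of its sequences but not for all. Of the 2811 sequences, 2375 (84.5%) belonged to 1488 genes listed as mRNAs, and 2336 of those 2375 (98.4%) matched a GENCODE 3′ UTR of the named gene in the stated orientation. The other 436 sequences (15.5%) belonged to 44 genes listed under noncoding accessions, which annotate no 3′ UTR. These were 224 sequences of 18 long noncoding RNAs, 148 of 14 small nucleolar RNAs, 48 of 4 other structural RNAs and 16 of 8 further noncoding entries. Of those last 16 sequences, 10 matched a UTR or coding stretch of another transcript of the named gene. Of the 44 genes, 16 also had entries in the coding exon category. Snord82, for example, had 28 sequences in the 3′ UTR category and 26 in the coding exon category.

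The sequences that best show the kinds of member are printed 5′ to 3′ as deposited, with T for U, and positions are in the build of the deposited list, which the sources used here did not name. The first set is a cluster of 6 sequences in the 3′ UTR of Vmp1 (listed as Tmem49), a membrane protein of autophagy, and was chosen for display after its values were seen. It spanned chr11:86397644-86397668 on the minus strand, and capitals mark the bases inside the RefSeq hairpin of Mir21a.
Tmem49 18 nt: cTGTACCACCTTGTCGGA
Tmem49 20 nt: ggcTGTACCACCTTGTCGGA
Tmem49 22 nt: atggcTGTACCACCTTGTCGGA
Tmem49 25 nt: cgcatggcTGTACCACCTTGTCGGA
Every sequence of the cluster ended at the same base, base 17 of the hairpin, and the gap to the first base of mature miR-21a-5p was 0 nt in all 6. The mature miRNA, from RefSeq on GRCm38.p6 with its seed (bases 2 to 8) in capitals, is shown for that junction.
mmu-miR-21a-5p: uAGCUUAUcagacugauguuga

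The second set lay in Tnrc6b, which encodes a GW182 protein of the microRNA silencing complex. The 11 sequences covered chr15:80770478-80770504 on the plus strand and lay within the hairpin that RefSeq names Mir5113. Capitals mark the bases of mature miR-5113.
Tnrc6b 20 nt: gACAGAGGAGGAGAGAGATC
Tnrc6b 23 nt: ACAGAGGAGGAGAGAGATCCTGT
Tnrc6b 24 nt: gACAGAGGAGGAGAGAGATCCTGT
Tnrc6b 27 nt: gACAGAGGAGGAGAGAGATCCTGTtta
mmu-miR-5113: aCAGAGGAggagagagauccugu
Of these 11 sequences, 8 began 1 base before the annotated mature sequence, and their 3′ ends were spread over 8 lengths.

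A further set shows a cluster of the same build with no listed hairpin. Mbnl1, a regulator of alternative splicing, had 11 overlapping sequences of 19 to 23 nt at chr3:60431250-60431274, and capitals mark the bases shared by all 11.
Mbnl1 19 nt: atATGCCATTTCTGAGACA
Mbnl1 20 nt: gatATGCCATTTCTGAGACA
Mbnl1 21 nt: ATGCCATTTCTGAGACAcaat
Mbnl1 23 nt: tATGCCATTTCTGAGACAcaata
The 11 sequences had 4 different 5′ ends and 6 different 3′ ends.

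A last set ran against its gene. Ece1, an endothelin-converting protease, had 10 sequences in the category, all antisense, at chr4:137519726-137519754 on the minus strand. Capitals mark the bases shared by all 10.
Ece1 18 nt: GGTGGGACCAAAAAAAAA
Ece1 22 nt: GGTGGGACCAAAAAAAAAaaaa
Ece1 29 nt: GGTGGGACCAAAAAAAAAaaaaaaaaaaa
All 10 began at the same base and differed only in the length of the closing run of A. Of the 2811 members, 16 (0.569%) ended in a run of at least 8 A, in 4 genes, and Ece1 held 10 of these 16.

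**Figure D1:**
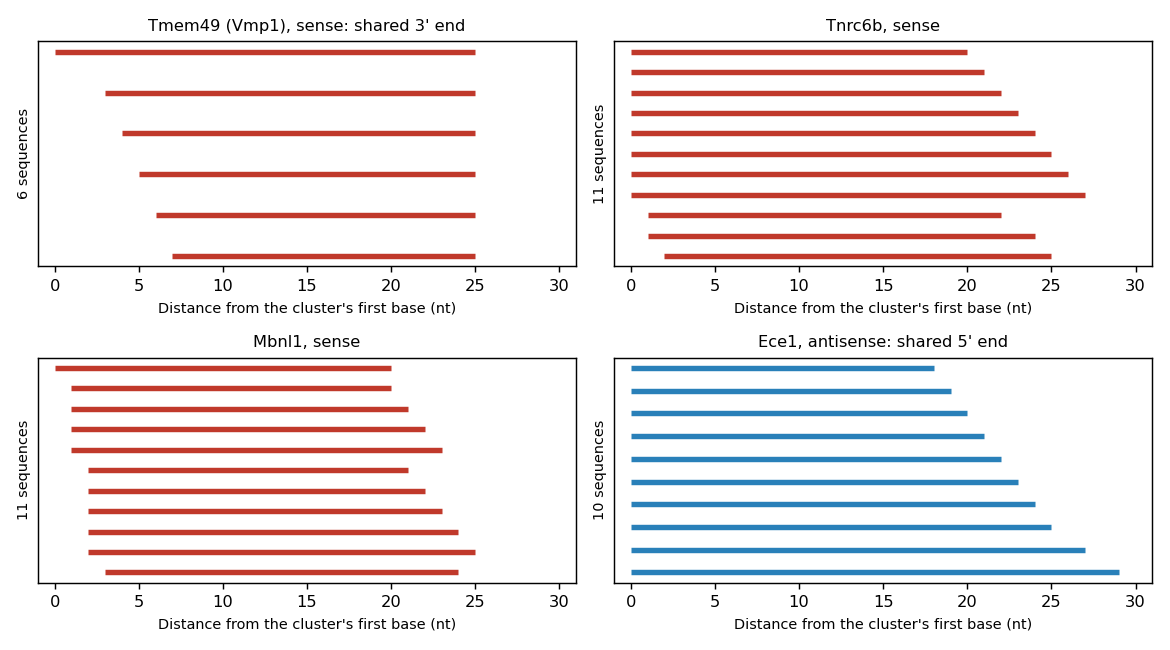
Extent of each distinct sequence in the clusters of Tmem49 (Vmp1), Tnrc6b, Mbnl1 and Ece1, as distance in nt from the first base of the cluster in the direction of transcription of the small RNA; each line is 1 sequence, red for sense and blue for antisense. The 6 Tmem49 sequences share their 3′ end, the 10 Ece1 sequences share their 5′ end, and neither end is common to all 11 sequences of Tnrc6b or of Mbnl1.

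Sequences of 18 nt took a smaller share of the 3′ UTR category than of any other category of the list. The 18 nt class made up 239 of 2811 sequences, or 8.50% (7.50 to 9.59%), against 8538 of 51456, or 16.6% (16.3 to 16.9%), over all other categories together. Among the single categories the 18 nt share was 16.5% in coding exons, 17.2% in 5′ UTRs, 15.9% in introns, 18.6% in 5′ flanks, 14.1% in 3′ flanks and 17.1% in the category named gene. The most frequent length was 20 nt in the 3′ UTR category, with 301 sequences, and 18 nt in every other category. The 19 nt class held a similar share in the 3′ UTR category and in coding exons, 9.89% and 10.3%. The count of 18 nt sequences was 0.860 times that of 19 nt sequences in the 3′ UTR category and 1.59 times in all other categories.

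Lengths of 20 nt and above took a larger share in their place. Sequences of 20 to 23 nt were 40.8% (39.0 to 42.7%) of the 3′ UTR category and 32.9% (32.5 to 33.4%) of all other categories. Sequences of 24 nt or more were 34.9% and 29.6%, and those under 19 nt were 14.4% and 27.0%, in the 3′ UTR category and in the others. The share of 24 nt or more was not particular to the 3′ UTR category. It was 36.6% in 3′ flanks and 33.7% in the category named gene, and 27.9 to 29.9% in the remaining categories. The category ran from 15 to 33 nt, so that 83.1% of its sequences lay within the labelled gel range of 19 to 30 nt, against 70.9% of all others. Median length was 22 nt in the 3′ UTR category and in 3′ flanks, and 21 nt over all other categories together.

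**Figure D2:**
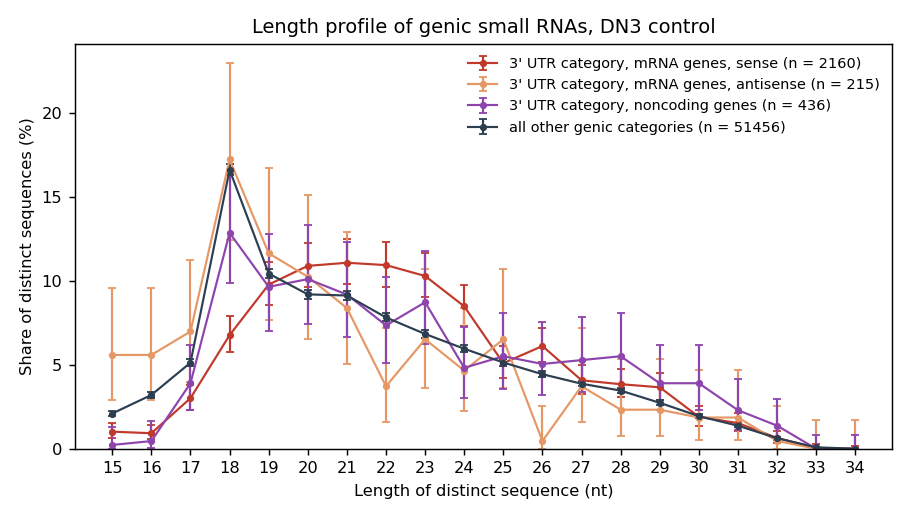
Share of distinct sequences (%) at each length in nt, for sense and antisense sequences of mRNA genes and for noncoding genes in the 3′ UTR category, and for all other categories; bars are 95% exact intervals for counting error. The sense mRNA curve has no peak at 18 nt (6.76%), while the antisense mRNA curve (17.2%) and all other categories (16.6%) do.

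The low 18 nt share belonged to the sense sequences of mRNA genes. Among them 146 of 2160 sequences, or 6.76% (5.74 to 7.90%), were 18 nt long, and the most frequent length was 21 nt. Antisense sequences of mRNA genes had 37 of 215, or 17.2% (12.4 to 22.9%), and their most frequent length was 18 nt. Sequences of noncoding genes lay between, with 56 of 436, or 12.8% (9.85 to 16.4%), and Malat1 alone had 18 of 109, or 16.5% (10.1 to 24.8%). The small nucleolar RNAs were low as well, with 9 of 148 sequences, or 6.08%.

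The gap between strands was widest in the 3′ UTR category among the 7 categories. The 18 nt share was 7.79% of sense and 16.4% of antisense sequences in the 3′ UTR category, 12.8% and 18.7% in 3′ flanks, and 14.2% and 19.6% in introns. In coding exons it was 16.7% of sense and 14.9% of antisense sequences, and in 5′ UTRs 17.4% and 15.7%.

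**Figure D3:**
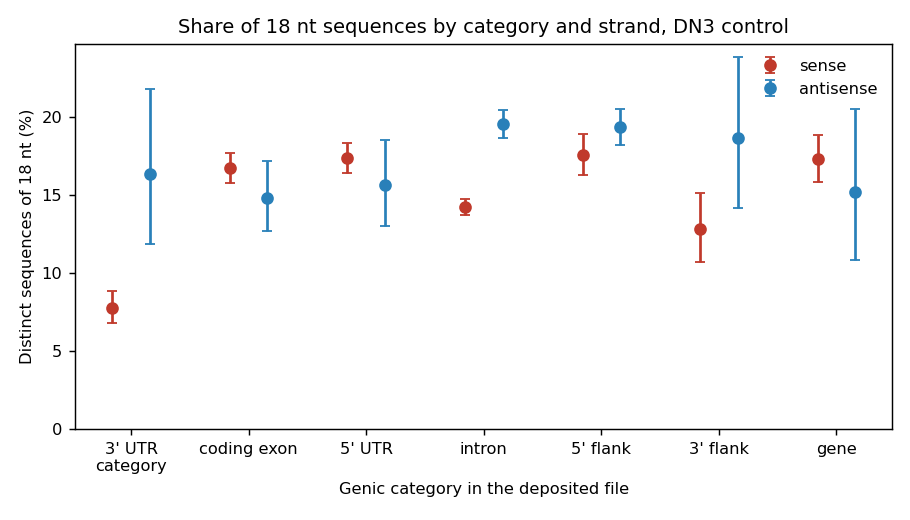
Share of distinct sequences that were 18 nt long (%) by genic category, for sense (red) and antisense (blue) sequences, with 95% exact intervals for counting error. Sense sequences of the 3′ UTR category lie at 7.79%, below the sense sequences of every other category (12.8 to 17.6%).

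Most members were in the sense orientation. Antisense sequences numbered 232, or 8.25% (7.26 to 9.33%), against 28.4% over all other categories. This share was near that of the gene category (8.37%) and of 5′ UTRs (10.2%), and below coding exons (14.3%), 3′ flanks (22.7%), introns (31.2%) and 5′ flanks (56.8%). None of the 148 small nucleolar RNA sequences was antisense, which allows a share of up to 2.03% (3 counts of the total). Antisense sequences fell in 176 genes, of which 126 had no sense member and 50 had members on both strands.

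Clusters of antisense sequences were few. A cluster here is a run of same-strand sequences in which each overlaps the next by at least 1 base. Of 202 antisense clusters, 4 held 3 or more sequences. Ece1, shown above, held 10, and the other 3 were in Ache (4 sequences), Sfswap (3) and Kis2 (3). Ache encodes acetylcholinesterase, and its 4 antisense sequences of 18 to 29 nt tiled chr5:137735617-137735672 with no shared end. Sfswap (listed as Sfrs8), a regulator of splicing, had 6 antisense and 3 sense sequences within a 3′ UTR of 317 nt. Its antisense cluster is shown with the shared bases in capitals.
Sfrs8 20 nt: TAGCTGCATGTAGGTCGGCA
Sfrs8 21 nt: aTAGCTGCATGTAGGTCGGCA
Sfrs8 25 nt: aTAGCTGCATGTAGGTCGGCAgagc
Kis2, a noncoding RNA of the X chromosome, had 3 sense and 3 antisense sequences, and its 3 antisense sequences overlapped a sense sequence by 13 or 14 bases.

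Few members overlapped a sequence of the opposite strand, and the same share over the whole list is not given here. Among members there were 20 sense and antisense pairs that overlapped, and 33 members (1.17%) overlapped an opposite-strand sequence of any category. H1f4 (listed as Hist1h1e), a linker histone, supplied 6 of the pairs and Snrnp48, a spliceosome subunit, 5. The Snrnp48 sequences, of 15 to 18 nt, resemble a stretch of common cloning vectors, and their origin was not tested; without Snrnp48 there were 15 pairs. Thy1, a surface glycoprotein of T cells, had 1 such pair at chr9:43855802-43855830, with the overlap in capitals.
Thy1 sense: ttagtttgTTCTTTCCCTGGAGACCTgtt
Thy1 antisense: AGGTCTCCAGGGAAAGAA
Of the 232 antisense members, 15 matched a transcript of another gene in sense. Cd247, the zeta chain of the T-cell receptor complex, had 3 antisense sequences and 1 sense sequence, and all 3 antisense sequences matched Pou2f1 in sense, 1 of them also matching Cd247 in antisense, so their listing under Cd247 is uncertain.

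The members were spread thinly over genes. Of 1532 genes, 1110 (72.5%) had 1 sequence, 228 had 2 and 194 had 3 or more, while 26 had 10 or more. The 10 leading genes held 345 sequences (12.3%) and the 20 leading genes 495 (17.6%). Noncoding genes made up 44 of 1532 genes but 11 of the 20 leading ones.

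**Figure D4:**
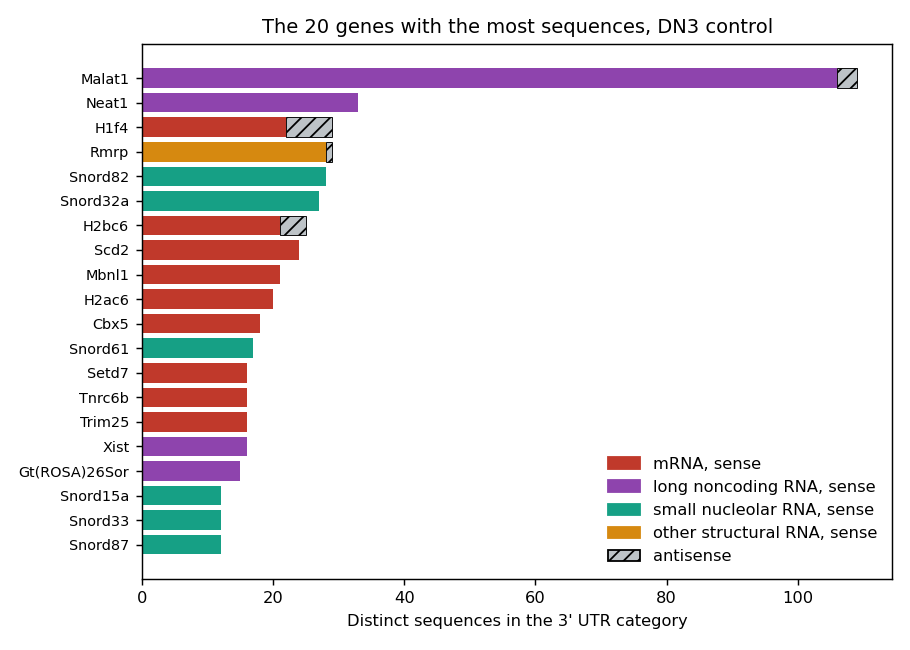
Distinct sequences in the 3′ UTR category for the 20 genes with the most, coloured by the kind of gene, with antisense sequences hatched. Malat1 stands at 109, Neat1 follows at 33, and the last of the 20, Snord87, has 12.

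Malat1, a long noncoding RNA of nuclear speckles, led with 109 sequences, 106 of them sense and 3 antisense, at chr19:5796987-5802667 on the minus strand. It also had 4 sequences in the coding exon category and 3 in the 5′ flank. Its sequences formed 36 clusters, and the largest held 53 sequences at chr19:5802580-5802667. That cluster lay at the 5′ end of the transcript, and 3 sequences of up to 30 nt from its first bases are shown, with no bases singled out.
Malat1 start: attcaggcagcgagagcagagcagcg
Malat1 start: ttcaggcagcgagagcagag
Malat1 start: caggcagcgagagcagagcag
On the GENCODE transcript Malat1-201, of 6983 nt, 48 of the 106 sense sequences (45.3%) began within the first 30 nt and 53 within the first 100 nt. The first began at base 6, and 74 began within the first 500 nt. Beyond base 500 the 5′ ends thinned to between 0 and 8 per 500 nt, and the last began at base 5667. The cluster at the 5′ end was a staggered set, with 26 different 5′ ends and 29 different 3′ ends among 53 sequences, and no 5′ end was shared by more than 5. A second Malat1 cluster, of 6 sequences at chr19:5800062-5800106, had 4 sequences that ended at 1 base. Of the 109 Malat1 sequences, 12 also matched a transcript of another gene.

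Other long noncoding RNAs differed in where their sequences lay. Neat1 (listed as 2310043N10Rik), the scaffold RNA of paraspeckles, had 33 sense sequences in 20 clusters. Of these, 8 began in the first 30 nt and 10 in the first 100 nt of a GENCODE transcript of 20771 nt, and the last began at base 3070. The extent of the Neat1 entry used by the submitters was not checked. Sequences further along the transcript could lie outside that entry. Gt(ROSA)26Sor, the transcript of the ROSA26 locus, had 15 sequences, all of which began within its first 100 nt, and 14 of them formed 1 cluster. Xist, the RNA that coats the inactive X chromosome, had 16 sequences, none before base 2376 of 17946, with a median start at base 16012.5. Its largest cluster, at chrX:100656568-100656595, held 8 sequences that shared their 5′ end, with the bases common to all 8 in capitals.
Xist 20 nt: AGAGGGTGGGACAGGAGGCC
Xist 28 nt: AGAGGGTGGGACAGGAGGCCgagtgaag

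**Figure D5:**
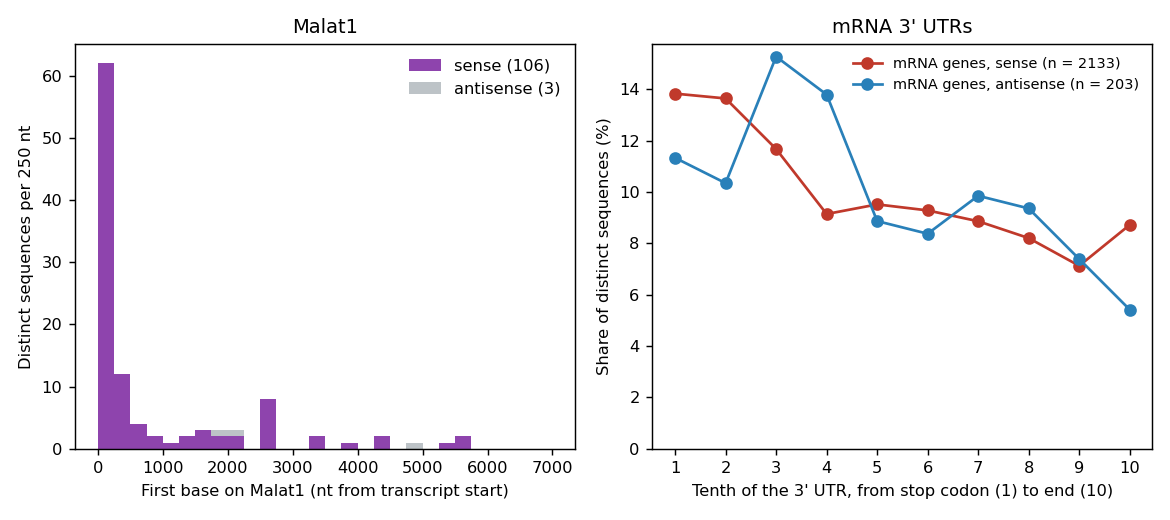
Left, the first base of each Malat1 sequence along the transcript (nt), counted per 250 nt, for 106 sense and 3 antisense sequences. Right, the share of mRNA sequences (%) in each decile of the 3′ UTR from the stop codon to the end, for 2133 sense and 203 antisense sequences; the sense share is 13.8% in the first decile and 8.72% in the last.

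Within this category, sequences of several small structural RNAs lay at or near the RNA's 3′ end, but not those of all. Entries of the same RNAs in other categories were not placed on the RNA. In the coding exon category these numbered 26 for Snord82, 9 for Snord87, 8 for Rmrp, 8 for Snord15a, 6 for Snord61 and 6 for Snord33. Rmrp, the RNA of the RNase MRP enzyme, had 29 sequences, and 17 of its 28 sense sequences (60.7%) ended within the last 30 nt of a 281 nt transcript. Those 17 formed 1 cluster at chr4:43505657-43505688 with 3 different 3′ ends. Snord82, a guide RNA for rRNA methylation, had 28 sequences in 1 cluster at chr1:88252836-88252894, and 20 of them ended within the last 10 nt of the 70 nt RNA. Snord61 had 17 sequences in 1 cluster at chrX:54644625-54644655, of which 11 shared a 3′ end. Only the other 6 matched the annotated 71 nt RNA, where they ended at base 70 or 71. The shared 3′ end of the 11 lay beyond the annotated RNA. Snord87 had 12 sequences that began between bases 35 and 55 of an 87 nt RNA, and 2 of them ended within its last 10 nt.

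Snord32a and Snord33 gave sequences from both ends. Snord32a had 27 sequences in 2 clusters. The cluster of 12 at chr7:52382803-52382832 lay at the 5′ end and 10 of its sequences shared a 5′ end, while the cluster of 15 at chr7:52382753-52382784 lay at the 3′ end. The bases shared by all 12 of the first cluster are in capitals.
Snord32a 17 nt: aGTCCATGATGAGCAAC
Snord32a 30 nt: aGTCCATGATGAGCAACactcaccatcttt
Snord33 had 5 sequences with 1 shared 5′ end near its start and a cluster of 7 in its 3′ part. Those 5 lay within the RefSeq hairpin Mir5121 and began 1 base after the first base of mature miR-5121, whose bases are in capitals.
Snord33 17 nt: GCTTGTGATGAGACATC
Snord33 25 nt: GCTTGTGATGAGACATCTCCcactc
mmu-miR-5121: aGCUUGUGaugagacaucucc
Snord15a (listed as EG449630) had 7 sequences at its 3′ end and 5 at its 5′ end. Snora68, chosen for its pattern after its values were seen, had 7 sequences that all ended at the last base of the RNA, and the shared bases are in capitals.
Snora68 18 nt: TCAGTAGGCTCTACAGAA
Snora68 29 nt: cccagagtgaaTCAGTAGGCTCTACAGAA

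Histone genes contributed 91 sequences of 9 genes. Replication-dependent histone mRNAs end in a stem-loop in place of a poly(A) tail. H1f4 had 29 sequences (22 sense and 7 antisense) at chr13:23712640-23713677. H2bc6 (listed as Hist1h2be) had 25 (21 sense and 4 antisense), and H2ac6 (listed as Hist1h2ac) had 20, all sense. H3c15 (listed as Hist2h3c2), outside the 20 leading genes, had 8. Over these genes, among them H3f3b, whose mRNA is polyadenylated, the 80 sense sequences with a 3′ UTR position lay near the stop codon, at a median relative position of 0.141, where 0 is the stop codon and 1 the transcript end. Of them, 33 (41.2%) began within 100 nt of the stop codon, against 8.23% of the sense sequences of the other mRNA genes. The annotated 3′ UTRs used for these positions were long, 1209 nt for H1f4 and 1906 nt for H2bc6, so relative positions depend on the annotated end.

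The other leading mRNA genes were tiled by scattered sequences rather than by 1 peak. Scd2, a fatty-acid desaturase, had 24 sense sequences in 19 clusters, at a density of 6.55 per kb of its 3664 nt 3′ UTR, and together they covered 12.2% of it. Cbx5, the heterochromatin protein HP1 alpha, had 18 sequences in 15 clusters over an 8097 nt 3′ UTR, a density of 2.22 per kb. Trim25, a ubiquitin ligase of antiviral signalling, had 16 sequences in 12 clusters and 4.48 per kb. Setd7, a lysine methyltransferase, had 16 sequences in 11 clusters and 2.67 per kb. One Setd7 cluster, of 4 sequences at chr3:51324117-51324142, shared its 5′ end.
Setd7 19 nt: ATCAGTGTCACGAAGGCAG
Setd7 26 nt: ATCAGTGTCACGAAGGCAGacatgct
Mbnl1 and Tnrc6b differed from these genes in that 11 of 21 and 11 of 16 sequences stood in the single clusters printed above. The Mbnl1 cluster began 991 nt after the stop codon in a 3′ UTR of 3395 nt, and the Tnrc6b cluster 10571 nt after it in one of 11609 nt.

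Over all mRNA genes the sense sequences were found along the whole 3′ UTR, with more in its first part. Each sequence was placed on the transcript with the longest 3′ UTR that held it. From the same stop codon, a longer 3′ UTR gives a lower relative position. For 2133 sense sequences of 1345 genes the median relative position was 0.42. The 3 deciles nearest the stop codon held 13.8, 13.6 and 11.7% of the sequences, and each later decile held between 7.13 and 9.52%. Without histone genes the median was 0.437 and those 3 deciles held 13.0, 12.7 and 11.8%. Sequences that began within 100 nt of the stop codon numbered 202 (9.47%), and 129 (6.05%) ended within 100 nt of the annotated end. The 203 antisense sequences with a position had a median of 0.40.

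Most members stood alone. The 2811 sequences formed 2320 clusters, of which 2150 were single sequences, 109 held 2 and 61 held 3 or more, so that 661 sequences (23.5%) overlapped another on the same strand. Of the 61 larger clusters, 25 lay in mRNA genes. In 7 of the 61 all sequences shared their 5′ end, and in 3 all shared their 3′ end. These 3 were Snora68, Snora69 and Vmp1.

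Few members lay within microRNA hairpins, and the same count over the other categories is not given here. Of 1005 RefSeq hairpins searched, 4 overlapped a member by 12 bases or more, with 24 members in 4 genes. These were the 6 of Vmp1, the 11 of Tnrc6b, the 5 of Snord33 and 2 of Mmgt1, a magnesium transporter gene of the X chromosome. The count may be incomplete. In the separate match to GENCODE transcripts, the genes matched in sense by members of Fam210a included Mir7219, which is not among these 4 hairpins. The 2 Mmgt1 sequences ended with mature miR-5116, whose bases are in capitals, and 1 of them was identical to it apart from T for U.
Mmgt1 21 nt: TTTGATAGGAACCCCGCCTGA
Mmgt1 22 nt: tTTTGATAGGAACCCCGCCTGA
mmu-miR-5116: uUUGAUAGgaaccccgccuga
The deposited miRNA list of the same library held 1067 sequences, none of them identical to a member and none listed under the names miR-5113, miR-5116 or miR-5121. These miRNAs were looked up by name only, and a list may use other names. The miRNA list was deposited apart from the genic list, and how sequences were divided between the lists was not tested.

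The ends of the sequences had uneven base composition. Among 2133 sense mRNA sequences the first base was A in 36.0% and T in 29.4%, while A and T made up 26.5% and 30.1% of all bases of the same genes' 3′ UTRs. The last base was T in 37.7% and C in 13.3%, against 30.1% T and 21.2% C in those 3′ UTRs. The next to last base was G in 32.5%, against 22.2% G. The sequences as a whole were rich in G, at 28.3%, so the next to last base was only a little above their own average. The first base was T in 27.6% (25.9 to 29.3%) of all members and in 20.3% of all other categories together. In 3′ flanks that share was 25.6% (23.1 to 28.2%), overlapping the interval of members, and it was lower in the remaining categories. Among sense sequences, T made up 28.0% of first bases and 25.2% of all bases in the 3′ UTR category. In introns these shares were 25.2% and 23.6%, while in 5′ flanks and the gene category the first-base share was the lower. The first-base share of A exceeded its share of all bases in every category, with 37.1% and 27.0% in 3′ flanks.

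Short motifs known from 3′ UTRs were searched. The polyadenylation signal AATAAA, searched in the sense strand of the 2133 sequences, was found in 57 (2.67%, interval 2.03 to 3.45%), against 1.49% of all windows of the same lengths in these 3′ UTRs. Of these 57 sequences, each from a different gene, 28 ended within 50 nt of the annotated end. The AU-rich pentamer ATTTA was found in 49 (2.30%, interval 1.70 to 3.03%), against 3.27% of windows. The Pumilio motif TGTANATA was found in 6 (0.281%, interval 0.103 to 0.611%), a range that includes the 0.379% of windows.

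Of 40 T-lineage genes, 22 had at least 1 member, with 65 sequences in all. Of the 10844 genes in the whole list, 1532 (14.1%) had a member. Of all 755 sequences of the 40 T-lineage genes, 8.61% (6.71 to 10.8%) were in the 3′ UTR category, against 5.18% of the whole list. None of 10 B-lineage, 10 myeloid, 10 erythroid and 10 stromal or epithelial markers had a member. These lists were nearly empty in every category, with 6 B-lineage, 4 myeloid, 0 erythroid and 3 stromal or epithelial sequences in all, too few to show whether their share in the 3′ UTR category differed from 5.18%.

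Bcl11b, the transcription factor that fixes T-cell identity, led the T-lineage genes with 10 sense sequences in 9 clusters over a 3′ UTR of 4997 nt. Ets1, a transcription factor of lymphocytes, had 8 (2.36 per kb). Rag1, a subunit of the recombinase that joins receptor gene segments, had 6 (1.77 per kb). Thy1 had 6, of which 5 were sense, at 4.43 sense sequences per kb. Ikzf1, which encodes the transcription factor Ikaros, had 5 (1.49 per kb). Il2ra, the receptor chain CD25 that marks DN3 cells, and Notch1, the receptor that drives T-cell commitment, had 3 each, and the 3 Notch1 sequences also matched a transcript of another gene. The T-lineage genes without a member included Ptcra, Cd3e and Rag2. Over all categories Cd3e had 29 sequences, Rag2 had 3 and Ptcra had 0, so for Rag2 and Ptcra the lack of a member says little about this category.

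The other lists varied in the share of their entries that were members. Among 12 translation factor genes, 3 of 435 sequences (0.690%) were in the 3′ UTR category. Among 15 cytoskeletal genes it was 2 of 132 (1.52%), and among 18 cell-cycle genes 6 of 158 (3.80%, interval 1.41 to 8.08%), with 3 in Ccnd2, a D-type cyclin. RNA-binding and splicing genes had 19 of 427 (4.45%, interval 2.70 to 6.86%), and 10 of these 19 were in Srsf1 (listed as Sfrs1) and 3 in Ncl, the nucleolar protein nucleolin. The 10 Srsf1 sequences were all single, with none overlapping another, in a 3′ UTR of 4149 nt. Genes of the small RNA pathway had 19 of 139 (13.7%), of which 16 were the Tnrc6b sequences, and the other 3 were in Dicer1 (2) and Tnrc6a (1). Nuclear noncoding RNAs had 164 of 866 (18.9%), a pooled share that hid a split between genes. Gas5, with 384 sequences in all categories, and Snhg1, with 302, had no member. Malat1 had 109 of its 116 sequences in the 3′ UTR category, Neat1 33 of 38 and Xist 16 of 18. Length of the 3′ UTR differs between genes and was not taken out of these shares.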

How the data were processed

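The genic list and the miRNA lists were used as deposited. Per the labels' protocols, RNA of 19 to 30 nt was cloned by its phosphate (5′) and hydroxyl (3′) ends and adaptors were clipped. For the aligner, annotation release and genome build, the sources used here give no name. Of the 2753 members placed on GENCODE M21 transcripts, 187 (6.79%) had the same GRCm38 position, so positions are printed in the list's own build. The genic list gives position and strand but no count, so depth is unknown and no level was computed. The values of the deposited miRNA lists were treated as scores and used only to look up sequences.

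Members were the entries of the 3′ UTR category. Names came from RefSeq (GRCm38.p6): 2766 by accession, 25 by symbol and 20 by an older symbol. Sequences were matched exactly to GENCODE transcripts, 2766 of 2811 with a match and 167 in transcripts of 2 or more genes. Overlapping same-strand sequences were joined into clusters. Python 3.11.15, pandas 2.3.3, NumPy 2.4.6, SciPy 1.17.1 and Matplotlib 3.10.9 were used; clustering and matching were tested on simulated data.

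Members, gene lists and comparisons were chosen with earlier results of these data known. Genes were named if they were among the 20 with the most sequences, in the 5 largest clusters, in an antisense cluster of 3 or more, or on a list with 3 or more members; others (among them Vmp1, Mmgt1, Snora68, Snora69, H3c15, H3f3b, the T-lineage genes Ptcra, Cd3e and Rag2, Snrnp48, Dicer1, Tnrc6a) were chosen after their values were seen, as were the sequences printed beside the longest of a cluster. Members on chromosome 18 were counted but their sequences are not printed.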

Additional observations from a re-analysis of the deposited data

How the results depend on the processing

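With 1 library, no sample could be left out. No paired analysis was possible because there was 1 library and no second group. Of the 2811 members, each occurred once in the list and in no other category, so limiting to sequences at 1 position or in 1 category left every value as it was. Where 1 sequence per cluster was used, the longest was kept, a choice that by itself favours longer lengths. The 18 nt share (8.50%) was 7.50% with 1 sequence per cluster. It lay between 7.66 and 8.18% as a mean over genes, in sense sequences, without Malat1 and without the 10 leading genes. It was 7.71% in mRNA genes and 16.4% in antisense sequences, 2 alternatives added after the data were seen. The most frequent length was 20 nt, 22 nt with 1 sequence per cluster, 21 nt in sense sequences and 18 nt in antisense sequences. The antisense share (8.25%) was 8.71% over clusters, 8.80% without the 10 leading genes and 7.93% without the Ece1 cluster, the last added after the data were seen. The share in clusters of 2 or more (23.5%) was 27.3, 32.5 and 44.1% when gaps of up to 25, 100 and 500 bases were joined, while the number of clusters was 2241, 2132 and 1884. With both strands joined there were 2311 clusters. Counted as clusters, the 10 leading genes held 6.90% in place of 12.3%. The share that began with T stayed between 27.6 and 28.8% with 1 sequence per cluster, without Malat1, at 20 to 24 nt and in mRNA genes. Depth is unknown, so absence of a gene or sequence is not a level of 0.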
